A study of Mus musculus with 6 samples.

Results

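Phc3 encodes 1 of the 3 Polyhomeotic proteins of mouse Polycomb repressive complex 1 (PRC1), and it was examined here with 8 other PRC1 genes, Phc1, Phc2, Bmi1, Ring1, Rnf2, Cbx2, Cbx7 and Cbx8. These 9 genes were found by their symbols among 34709 genes of the expression table. Phc3 was picked on measured values, for its low level in every knockout (KO) library, so its difference between the groups is given as a description with no test, whereas the 8 partners were chosen for belonging to the same complex. The samples were bulk RNA from articular cartilage of male mice of 18 months, 3 KO and 3 wildtype libraries, from littermates in the study's methods and with a KO line bought on a C57BL/6J background. The sources used here do not say whether a library was 1 animal or a pool. No agent was given to either group according to the labels.

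PRC1 is a chromatin complex that keeps developmental genes silent. Ring1 or Rnf2 attaches a single ubiquitin to histone H2A, Bmi1 or another PCGF protein pairs with that enzyme, a CBX protein reads the methyl mark that Polycomb repressive complex 2 (PRC2) lays on histone H3, and a Polyhomeotic protein carries a SAM domain that chains complexes together and compacts chromatin. These canonical complexes differ from variant PRC1, in which Rybp or Yaf2 stands in place of the CBX and Polyhomeotic subunits. Hox genes and the cell cycle inhibitor locus Cdkn2a are classic targets, and Bmi1 is known for holding Cdkn2a down in stem and progenitor cells, blood-forming cells among them.

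Total counts ranged from 52268311 to 63331135 per library. KO replicates 2 and 3 were far more alike than any other pair. Over genes with 200 to 50000 counts, the squared difference between their counts was 5.73 times that of sampling noise, against 22.8 to 82 times in the other 14 pairs, and they were therefore averaged and counted as 1 sample, which gave 2 KO and 3 wildtype samples. The library labelled KO replicate 1 scored with wildtype on the leading principal component (24.6, against 23.9 to 26.2 in wildtype and -50.7 and -49.6 in KO replicates 2 and 3). Of 14 chondrocyte markers, 12 passed the filter on low values. The 14 summed to 1064 to 4003 FPKM (fragment counts scaled to transcript length and library size). The libraries also held marrow transcripts, with 12 neutrophil markers summing to 27490 to 63430 FPKM and 9 erythroid markers to 24950 to 108600 FPKM. In bulk tissue, fewer cells of a type and less RNA per cell cannot be told apart.

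The Phc3 gene (ENSMUSG00000037652) spans chr3:30899371-30969405 on the minus strand, positions that follow GRCm38. Its promoter is shown because Phc3 is the gene on which the comparison turns, with 250 bases before and 50 after the RefSeq transcription start (GRCm38.p6, chr3:30969366-30969665, minus strand), read 5′ to 3′. Capitals mark an E-box, CACGTG, and a stretch that holds GCGCATGC and its reverse complement, the core bound by NRF1, a factor known for regulating nuclear genes of mitochondria.
Phc3 promoter: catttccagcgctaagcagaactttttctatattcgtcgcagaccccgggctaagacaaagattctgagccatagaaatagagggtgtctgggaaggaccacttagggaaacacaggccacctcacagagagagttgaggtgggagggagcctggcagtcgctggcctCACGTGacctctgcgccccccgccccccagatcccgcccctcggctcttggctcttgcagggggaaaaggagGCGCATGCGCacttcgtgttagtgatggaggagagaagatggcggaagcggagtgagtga

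Both motifs were chosen after this sequence was read, and both strands were searched. CACGTG was found in 7.15% of 32851 promoters of the same length, GCGCATGC in 2.71% and both in 0.329%. The RefSeq table held 10 promoters for 8 of the 9 genes. Among these, CACGTG also occurred in 1 of the 3 promoters of Phc2 and in those of Bmi1 and Cbx8, and GCGCATGC occurred in that of Phc3 alone. The Phc3 promoter held 15 CG dinucleotides, against a median of 7 over all promoters. These matches describe letters in a window, and no binding was measured.

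Phc3 was low in every KO library. Its level was 0.238, 0.470 and 0.554 FPKM in KO replicates 1 to 3, against 2.94, 2.18 and 2.69 FPKM in wildtype replicates 1 to 3. The groups did not overlap, and the library labelled KO replicate 1, which scored with wildtype on the leading principal component, was the lowest of all. The counts behind these levels were 246, 583 and 685 in KO and 3393, 2305 and 2993 in wildtype. Thus the KO libraries held 9.14%, 18% and 21.3% of the wildtype mean.

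The KO mean was 0.375 ± 0.194 FPKM (SD, n = 2), whereas the wildtype mean was 2.60 ± 0.387 FPKM (SD, n = 3), a 6.94-fold difference, and the log2 difference fitted to the counts was -2.78. Even the lowest wildtype library was 3.94-fold above the highest KO library. Among 15373 tested genes, 0 others had a lowest wildtype level so far above its highest KO level, a comparison that the choice of Phc3 used. By log2 difference, 26 tested genes lay lower than Phc3, and 14 of those were listed at 0 FPKM in at least 1 library. The difference was -2.37 without KO replicate 1 and -3.35 with KO replicate 1 as the sole KO sample.

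The table named 9 transcripts under Phc3, all present in GENCODE M21, of which 5 are annotated as protein coding, 2 as targets of nonsense-mediated decay and 2 as retained introns. Levels were given per gene, so the share of each transcript was not measured. The length implied by each count and its FPKM, relative to the wildtype mean, was 0.981 to 1.01 for Phc3. Over the 9 genes it was 0.977 to 1.01. Within a library the 9 genes had nearly the same value, as a fixed length per gene would give. A change in the mix of Phc3 transcripts could therefore not be read from it.

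**Figure D1:**
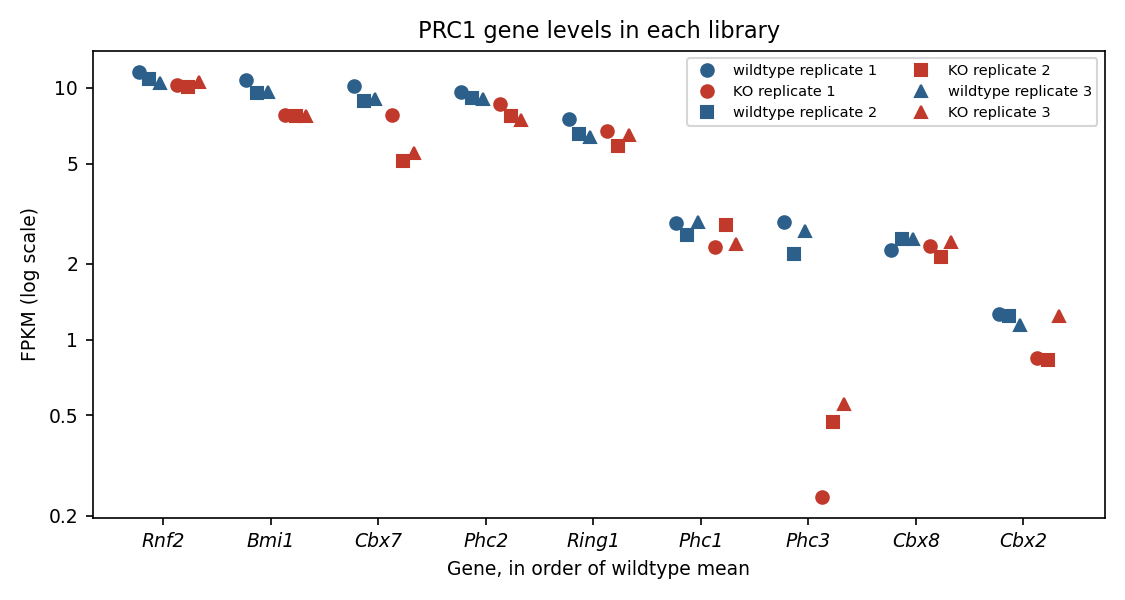
Level of the 9 PRC1 genes in each library, in FPKM on a log axis, with genes in order of their wildtype mean; blue points are wildtype and red points KO, and the symbol gives the replicate. Phc3, picked for its low level in KO, sits at 0.238 to 0.554 FPKM in KO against 2.18 to 2.94 FPKM in wildtype. The KO and wildtype points of the other genes lie closer together.

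In the wildtype libraries, which held marrow transcripts as well, the level per length ran from Rnf2 through Bmi1, Cbx7, Phc2, Ring1, Phc1, Phc3 and Cbx8 to Cbx2. The ranges of neighbours in this order overlapped from Rnf2 to Phc2 and from Phc1 to Cbx8, so those steps were within the spread of the libraries. The gaps between Phc2 and Ring1, between Ring1 and Phc1, and between Cbx8 and Cbx2 were larger than the spread. Phc3 ranked 7 of the 9 genes in wildtype and 9 of the 9 in KO, where it ranked below Cbx8 and Cbx2. All 9 genes passed the filter for testing, a mean of 0.5 FPKM over the libraries.

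None of the 8 partners passed an adjusted p of 0.05. Their differences were far smaller than that of Phc3, which was picked for its low level. Across all genes the same test (edgeR's quasi-likelihood test, Benjamini-Hochberg over all tested genes) called 0 of 15373, or 0%, with a lowest adjusted p of 0.105, while 2106 genes had an unadjusted p under 0.05, limma called 0 and DESeq2 called 879, none of them a partner. All 8 partners had a log2 difference below 0, with a median of -0.16 against -0.016 over all tested genes. At an unadjusted p under 0.05, 2 of the 8 were lower in KO, where 6.07% of all tested genes were. In 3 of the 8, Phc2, Bmi1 and Cbx7, every KO library lay below every wildtype library, as in 13.7% of all tested genes. With the 6 libraries counted as labelled, 570 genes, or 3.71%, passed, and again none of the 8 partners was among them.

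Of the Polyhomeotic paralogues, Phc2 was the most abundant in these libraries. Phc2 measured 8.61, 7.72 and 7.46 FPKM in KO replicates 1 to 3 and 9.62, 9.11 and 9.04 FPKM in wildtype. The groups did not overlap, but the log2 difference was only -0.17 ± 0.13 (SE) with an adjusted p of 0.675 in edgeR. Phc1, which is best known from embryonic stem cells, measured 2.34, 2.85 and 2.41 FPKM in KO and 2.90, 2.62 and 2.93 FPKM in wildtype. Its groups overlapped, with a log2 difference of -0.16 ± 0.16 (SE) and an adjusted p of 0.750 in edgeR. Neither paralogue had a higher mean in KO, where Phc3 was low.

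The shares within the Polyhomeotic family put the same levels in another form. Phc3 made up 19%, 15.7% and 18.4% of the summed Polyhomeotic FPKM in the wildtype libraries and 2.13%, 4.25% and 5.32% in the KO libraries. Phc2 correspondingly held 61.7% to 65.5% in wildtype and 69.9% to 76.9% in KO, and Phc1 18.7% to 20% and 20.9% to 25.8%. These shares restate the low Phc3 level that chose the gene and are not a separate result. The shares of Phc1 and Phc2 were higher in KO although their mean levels were not. The family sum was 13.9 to 15.5 FPKM in wildtype and 10.4 to 11.2 FPKM in KO.

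Bmi1, a PCGF subunit of canonical PRC1, was lower in all KO libraries by about the same amount. It measured 7.81, 7.74 and 7.73 FPKM in KO and 10.8, 9.50 and 9.62 FPKM in wildtype. The KO libraries were nearly equal, and all lay below the lowest wildtype library. The KO mean was 7.77 ± 0.052 FPKM (SD, n = 2), whereas the wildtype mean was 9.96 ± 0.694 FPKM (SD, n = 3). The log2 difference was -0.34 ± 0.13 (SE), with an edgeR p of 0.0342 and an adjusted p of 0.313. With the 6 libraries as labelled, the adjusted p was 0.0822. Bmi1 held 34.4% to 36.8% of the summed PCGF FPKM in wildtype and 31% to 32.7% in KO.

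The catalytic subunits were nearly level between the groups. Rnf2, the main ubiquitin ligase of PRC1, measured 10.3, 10.1 and 10.5 FPKM in KO and 11.6, 10.9 and 10.5 FPKM in wildtype. The groups overlapped, and its log2 difference was -0.07 ± 0.12 (SE) with an adjusted p of 0.882 in edgeR. Ring1, the paralogue of Rnf2, measured 6.76, 5.90 and 6.51 FPKM in KO and 7.52, 6.57 and 6.39 FPKM in wildtype. It overlapped as well, with a log2 difference of -0.05 ± 0.16 (SE) and an adjusted p of 0.943 in edgeR. Rnf2 made up 60.4% to 63.1% of the summed FPKM of this pair over all libraries.

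Among the chromodomain partners, Cbx7 showed the lowest log2 difference. Cbx7, which binds the PRC2 mark in differentiated and progenitor cells, measured 7.81, 5.12 and 5.49 FPKM in KO and 10.2, 8.89 and 9.06 FPKM in wildtype. All KO libraries lay below wildtype, and KO replicate 1 lay between KO replicates 2 and 3 and the wildtype libraries. The log2 difference was -0.48 ± 0.20 (SE), with an edgeR p of 0.0470 and an adjusted p of 0.357. This value depended on KO replicate 1. Without it, the difference was -0.86 with an adjusted p of 0.0474 in edgeR, where the lone averaged KO sample was assumed to vary like wildtype, and with KO replicate 1 as the sole KO sample it was -0.18 with an adjusted p of 0.695.

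Cbx2 and Cbx8, which lie 5035 bp apart on chromosome 11, ranked 9 and 8 of the 9 genes by wildtype level. Cbx2 measured 0.846, 0.834 and 1.24 FPKM in KO and 1.27, 1.25 and 1.15 FPKM in wildtype. KO replicate 3 lay among the wildtype libraries, and the log2 difference of -0.35 ± 0.23 (SE) had an adjusted p of 0.584 in edgeR. Cbx8 measured 2.36, 2.13 and 2.45 FPKM in KO and 2.26, 2.52 and 2.52 FPKM in wildtype, and it overlapped, with a log2 difference of -0.04 ± 0.19 (SE) and an adjusted p of 0.968 in edgeR.

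**Figure D2:**
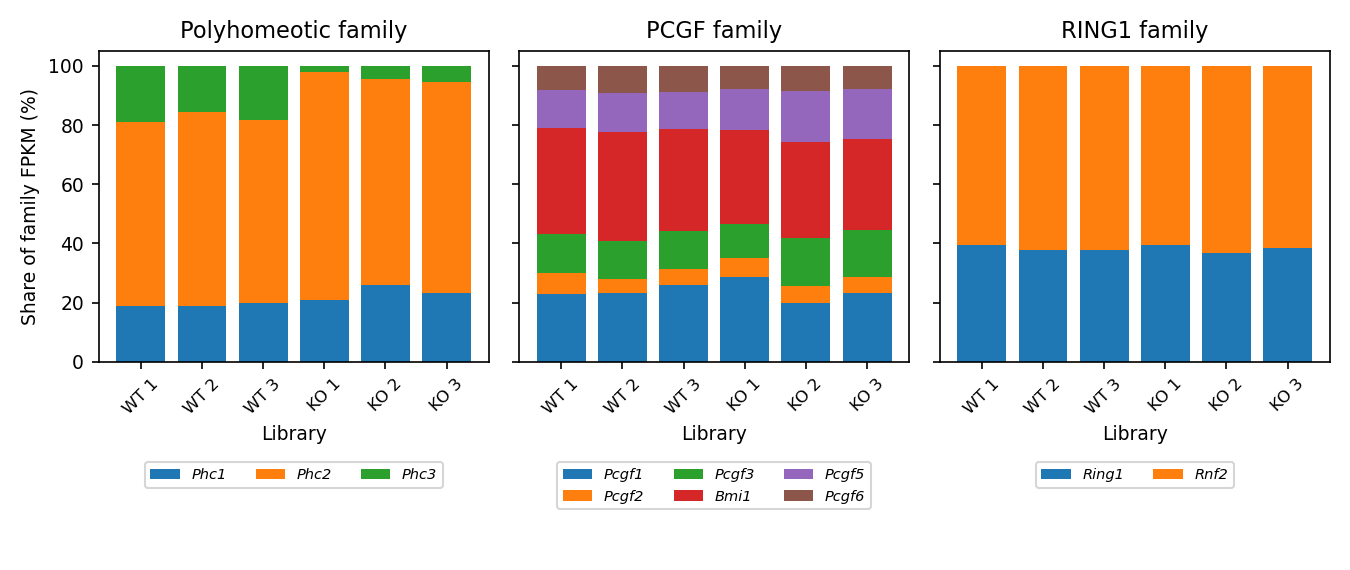
Share of each paralogue in the summed FPKM of its family, in percent, per library (WT, wildtype), as stacked bars for the Polyhomeotic, PCGF and RING1 families. Phc3 takes 15.7% to 19% of the Polyhomeotic bar in wildtype and 2.13% to 5.32% in KO, and Rnf2 takes 60.4% to 63.1% of the RING1 bar over all libraries.

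Of the other canonical PRC1 subunits, 4 tested genes are given by their own values, without a count or median, since that list is not complete here. Cbx6, another chromodomain subunit, measured 3.28, 2.87 and 3.10 FPKM in KO and 4.55, 4.26 and 4.53 FPKM in wildtype. Its log2 difference was -0.48 ± 0.13 (SE) with an adjusted p of 0.202 in edgeR, and 0.0450 with the 6 libraries as labelled. Scml4, a Polycomb-like gene with a SAM domain, was at 0.318 to 0.558 FPKM in KO and 0.595 to 1.24 FPKM in wildtype (log2 difference -0.98 ± 0.38 SE, adjusted p of 0.327 in edgeR). Pcgf2, the PCGF paralogue closest to Bmi1, and Scmh1, another SAM domain gene, overlapped between the groups, with log2 differences of -0.09 ± 0.29 (SE) and 0.02 ± 0.18 (SE) and adjusted p of 0.950 and 0.982 in edgeR.

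Variant PRC1 and PRC2 genes were balanced around 0. Of 26 variant PRC1 genes with measured levels, 25 were tested, of which 14 were higher and 11 lower. Their median log2 difference was 0.04, and none passed the adjusted threshold. At an unadjusted p under 0.05, 2 were higher, where 7.63% of all tested genes were, and 0 were lower. Rybp, which defines variant PRC1, measured 10.4, 13.5 and 13.4 FPKM in KO and 9.03, 8.81 and 8.68 FPKM in wildtype. All KO libraries lay above wildtype, as in 11.3% of all tested genes, with a log2 difference of 0.45 ± 0.13 (SE) and an adjusted p of 0.217 in edgeR, and 0.0478 with the 6 libraries as labelled. Tfdp1, the partner of E2F factors, had a log2 difference of 0.36 ± 0.14 (SE) and Max, the partner of MYC family factors, one of 0.20 ± 0.11 (SE), with adjusted p of 0.329 and 0.519 in edgeR.

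All 12 PRC2 genes were tested, of which 6 were higher and 6 lower, with a median log2 difference of -0.0015 and none at an unadjusted p under 0.05. The methyltransferase Ezh2 measured 12.7 to 15.2 FPKM in KO and 14.9 to 17.5 FPKM in wildtype, which overlapped (log2 difference -0.23 ± 0.12 SE, adjusted p of 0.466 in edgeR). Suz12, its scaffold, differed by -0.18 ± 0.14 (SE, adjusted p of 0.668 in edgeR). Phf19, an accessory subunit that helps PRC2 to its sites, was at 2.01 to 2.73 FPKM in KO and 1.62 to 1.95 FPKM in wildtype, which did not overlap (log2 difference 0.37 ± 0.19 SE, adjusted p of 0.466 in edgeR).

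Of 16 genes that remove the Polycomb marks or help to, 10 were higher and 6 lower, with a median log2 difference of 0.08 and none past the adjusted threshold. Kdm6b, which takes the PRC2 mark off histone H3, measured 5.69, 10.1 and 9.95 FPKM in KO and 5.63, 4.47 and 5.15 FPKM in wildtype. KO replicates 2 and 3 stood far above wildtype, and KO replicate 1 only just, with a log2 difference of 0.64 ± 0.21 (SE) and an adjusted p of 0.260 in edgeR. Foxk1, a forkhead factor bound by the deubiquitinase complex PR-DUB, differed by 0.48 ± 0.16 (SE) and Asxl1, a subunit of that complex, by 0.34 ± 0.15 (SE), with adjusted p of 0.253 and 0.373 in edgeR. Over the 65 tested subunits and removers reported here, the 8 partners included and Phc3 left out, 31 were higher and 34 lower, with a median of -0.0070. Of these, 4 were lower and 4 higher at an unadjusted p under 0.05, against 6.07% and 7.63% of all tested genes. With the 6 libraries as labelled 2 passed the adjusted threshold, Cbx6 and Rybp, against 3.71% of all tested genes.

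A smaller share of the classic targets than of the subunits passed the filter. Of 41 Hox genes and cell cycle inhibitor genes, 17 were tested, of which 6 were higher and 11 lower, with a median log2 difference of -0.17 and none past the adjusted threshold. Hoxd4, a patterning factor, measured 0.557, 0.233 and 0.298 FPKM in KO and 0.912, 1.02 and 1.03 FPKM in wildtype. The groups did not overlap (log2 difference -1.22 ± 0.41 SE, adjusted p of 0.263 in edgeR). Hoxa5 and Hoxa9 did not overlap either, with log2 differences of -0.69 ± 0.31 (SE) and -0.33 ± 0.23 (SE) and adjusted p of 0.394 and 0.621 in edgeR. These were the 3 of the 17 with every KO library below every wildtype library, as in 13.7% of all tested genes. At an unadjusted edgeR p under 0.05, 1 of the 17 was lower, where 6.07% of all tested genes were. The other 21 targets with a row in the table were under the filter, with at most 0.653 FPKM in any library. Among those, Cdkn2a had 0, 11 and 11 counts in KO and 17, 17 and 4 in wildtype, and Cdkn2b had 0, 18 and 8 in KO and 22, 49 and 11 in wildtype, too few to compare.

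**Figure D3:**
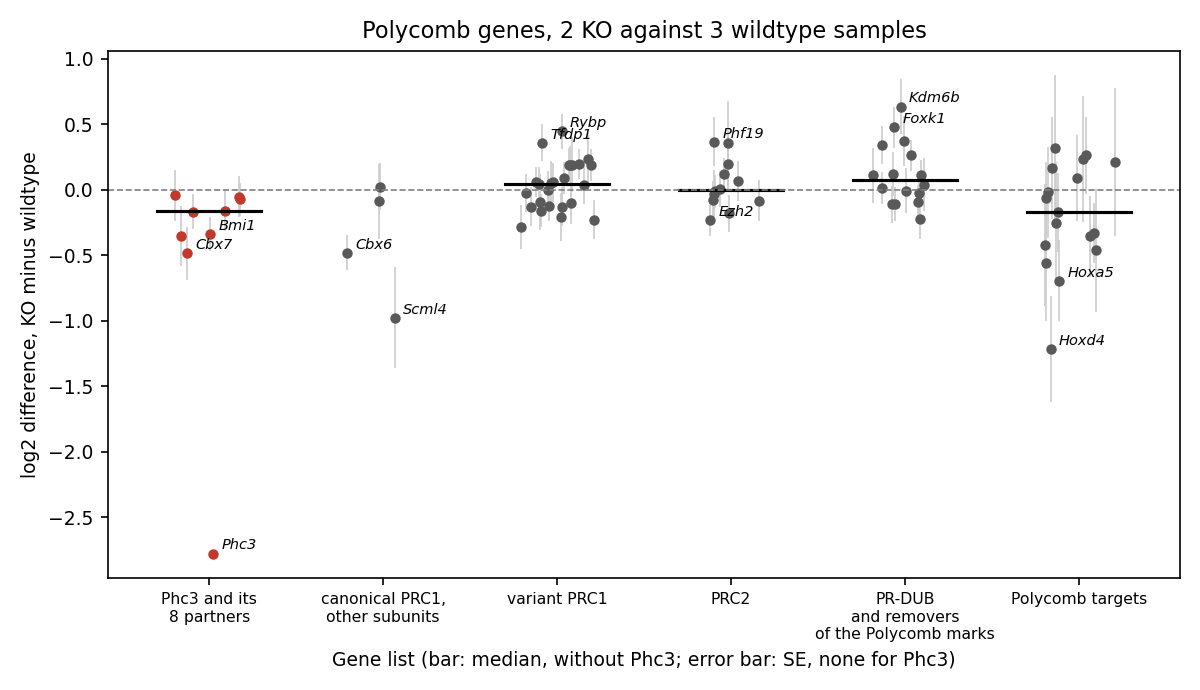
Log2 difference (KO minus wildtype, edgeR fit of 2 KO and 3 wildtype samples) of each tested Polycomb gene, by list; error bars are SE, horizontal bars are medians, without Phc3 and not drawn for the other canonical subunits, and horizontal scatter within a list carries no value. Phc3, picked for its low level in KO, lies at -2.78, its partners at -0.48 to -0.04, and the PRC2 median at -0.0015.

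Phc3 was picked for its low level, and 26 of 15373 tested genes had a lower log2 difference. A contrast with its neighbours therefore follows largely from that choice. Around Phc3 on chromosome 3, no tested neighbour had a log2 difference near that of Phc3. The closest, Gpr160, an orphan G protein-coupled receptor gene on the plus strand, ends 2179 bp from the 3′ end of Phc3, so that both genes point toward each other. Gpr160 measured 6.60, 8.49 and 9.01 FPKM in KO and 4.70, 4.97 and 4.62 FPKM in wildtype. It was higher in every KO library, with a log2 difference of 0.70 ± 0.16 (SE) and an adjusted p of 0.168 in edgeR, and 0.0363 with the 6 libraries as labelled. On the other side, Prkci, an atypical protein kinase C gene that begins 26342 bp from the Phc3 start, was at 3.56 to 6.29 FPKM in KO and 3.83 to 4.66 FPKM in wildtype, and overlapped (log2 difference 0.21 ± 0.21 SE, adjusted p of 0.755 in edgeR). The next tested genes toward Gpr160, Gm38080, Sec62, Mynn and Rpl22l1, differed by 1.28, -0.06, -0.11 and -0.24 on the log2 scale, and those past Prkci, Skil, Zmat3, Pik3ca and Gm37123, by -0.12, -0.40, 0.01 and 0.09. Their adjusted p in edgeR was 0.462 or more, and all 8 overlapped between the groups. Gm38080 was near the floor, with 9, 25 and 12 counts in KO and 3, 4 and 9 in wildtype. Some of these genes are distant, with Zmat3, Pik3ca and Gm37123 1365 to 1485 kb and Rpl22l1 2092 kb from Phc3.

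**Figure D4:**
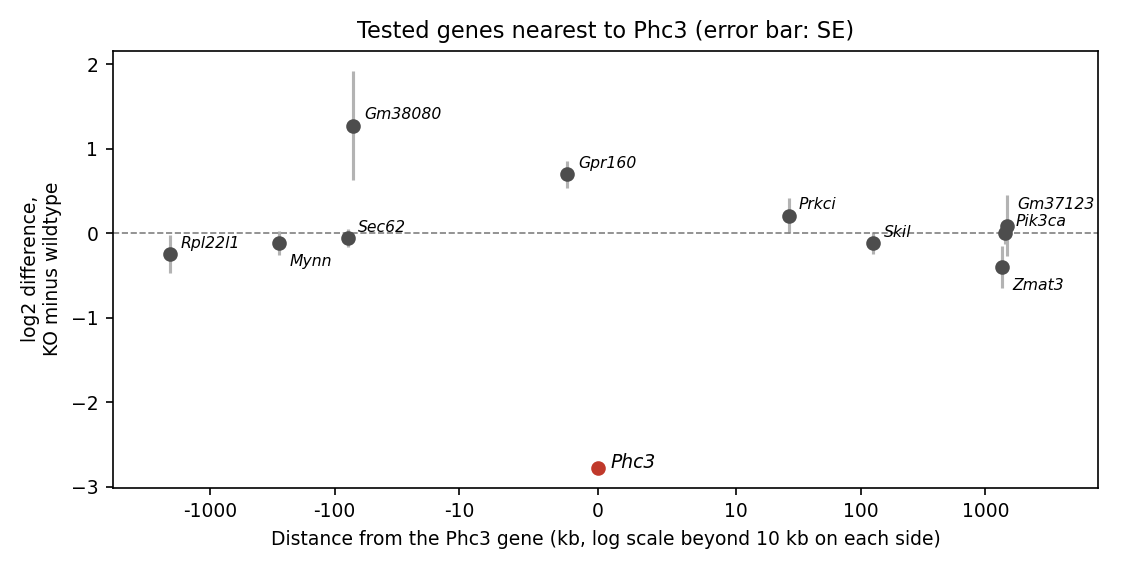
Log2 difference (KO minus wildtype, with SE) of the 5 nearest tested genes on each side of Phc3 against their distance from it in kb, on an axis that is logarithmic beyond 10 kb. Phc3, picked for its low level in KO, lies at -2.78, the adjacent Gpr160 at 0.70, and the other genes between -0.40 and 1.28. The value of 1.28 is that of Gm38080, with 3 to 25 counts per library.

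The genes whose pattern over the 6 libraries was most like that of Phc3 were Fbxo30, Trim59, Pou2af1, Zfp367 and Dnajb4. They were taken from 7614 genes that averaged 5 FPKM or more, by Pearson r on log2(FPKM + 1), which was 0.994, 0.994, 0.992, 0.991 and 0.990. With so few libraries that fall into low and high ones, this r mostly measures the split between the groups, and it was given no p. Their log2 differences were -0.55, -0.62, -1.19, -0.48 and -0.64, all smaller than that of Phc3, which was picked for its low level. Pou2af1 encodes a coactivator of B cells, and it measured 9.68, 10.3 and 11.2 FPKM in KO and 25.6, 23.1 and 22.3 FPKM in wildtype.

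B cell genes were also low in the KO libraries. Phc3 was picked for being low there, so their both being low in KO only restates the split between the groups. All 12 B cell markers were lower in KO, with a median log2 difference of -1.49 and a range of -1.64 to -1.11. In all 12, every KO library, KO replicate 1 included, lay below every wildtype library, as in 13.7% of all tested genes. Their sum was 91.1 to 143 FPKM in KO and 289 to 326 FPKM in wildtype. Relative to its wildtype mean, Phc3 lay at -3.45, -2.47 and -2.23 on the log2 scale in KO replicates 1 to 3, and the median B cell marker at -1.32, -1.72 and -1.71. Thus, of the KO libraries, replicate 1 had the lowest Phc3 level but the highest B cell median. All 9 erythroid markers with a row were also lower in KO, with a median of -0.91. In all 9, every KO library likewise lay below every wildtype library. All 12 neutrophil markers were higher, with a median of 0.90. In 11 of them every KO library lay above every wildtype library, as in 11.3% of all tested genes. The median was 0.06 for chondrocyte, -0.06 for proliferation, -0.36 for macrophage, -0.49 for T and NK cell, -0.43 for osteoblast and osteocyte, -0.53 for skeletal muscle and -0.47 for endothelial markers. The KO libraries stood far apart for the sum of skeletal muscle markers, at 165.7, 5.36 and 4.44 FPKM in KO replicates 1 to 3. The chondrocyte sum was 4003, 1243 and 1240 FPKM. Most of it came from Cytl1 (2759, 687 and 677 FPKM) and Prg4 (1034, 436 and 441 FPKM). Among the tested chondrocyte markers, Col11a1 (5.67, 10.4 and 10.2 FPKM) and Col11a2 (27.4, 31.3 and 31.5 FPKM) were instead lower in KO replicate 1 than in KO replicates 2 and 3. None of the listed cell type markers passed the adjusted threshold in the edgeR fit of 5 samples, which called 0 of 15373 genes. At an unadjusted p under 0.05 in that fit, all 12 B cell and 4 of 9 erythroid markers were lower, where 6.07% of all tested genes were. Of the 12 neutrophil markers 8 were higher, where 7.63% were. With the 6 libraries as labelled, 10 B cell, 5 neutrophil, 1 erythroid and 1 macrophage marker passed, where 3.71% of all tested genes did. The part of these cell types in the levels of Phc3, Bmi1, Cbx7 and the other PRC1 genes was not tested.

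**Figure D5:**
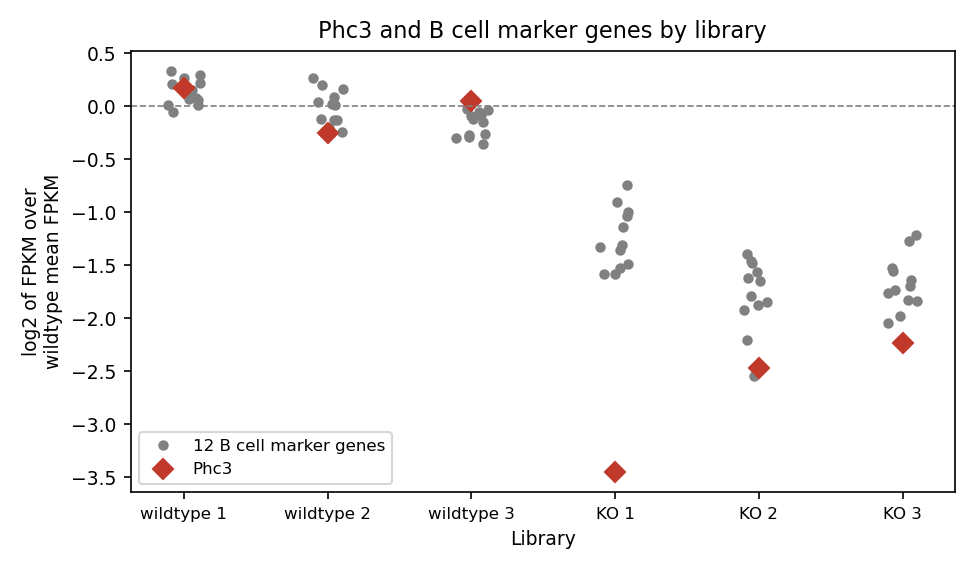
Level of Phc3 (red diamonds) and of 12 B cell markers (grey points) in each library, as log2 of FPKM over the wildtype mean FPKM; horizontal scatter carries no value. Phc3 lies at -3.45 in KO replicate 1, under all B cell markers there (-1.59 to -0.746), and at -2.47 and -2.23 in KO replicates 2 and 3, where the markers reach down to -2.55 and -2.05.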

How the data were processed

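Polyadenylated RNA was sequenced as strand-specific paired-end libraries with molecular identifiers. The submitters' processing notes name cutadapt 1.9, HISAT2 2.0.4, UMI-tools, StringTie 1.3.4d, DESeq2 and edgeR; the genome build is not given in the sources used here, and positions followed GRCm38, with 87% of genes matched to GENCODE M21 having the same start and end. The authors deposited estimated counts (all whole numbers) and FPKM per gene. The gene knocked out and some list genes are not reported here. Members and gene lists were chosen with earlier results of these data known.

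Counts were tested with edgeR 4.0.16 (R 4.3.3), a quasi-likelihood test after TMM scaling, in 15373 genes whose FPKM averaged 0.5 or more, with Benjamini-Hochberg adjustment over all of them. KO replicates 2 and 3 entered as the mean of their counts. The study's methods say that experiments used independent samples, but not from how many animals each library came, so p-values measure the spread between these libraries. Genes named were the 9 PRC1 genes, the 3 with the smallest p of each Polycomb list, the 5 nearest tested genes on each side of Phc3 and the 5 most like it. Further genes (the B cell, blood and other markers, Cdkn2a and Cdkn2b) were named from lists. Alternatives used limma 3.58.1, DESeq2 1.42.0, other scalings and filters, a replicate block and left-out libraries. The edgeR, limma and DESeq2 fits were also run on simulated counts with differences of known size. That simulation used independent samples and the same spread for every gene, so it did not check the test under the spread of these libraries.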

Additional observations from a re-analysis of the deposited data

How the results depend on the processing

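The number of genes past the adjusted threshold, 0 in the fit of 5 samples, was 570 with the 6 libraries as labelled, 879 with DESeq2, 21 without a filter on low values (of 33520 genes), 9 with KO replicate 1 as the sole KO sample, and 0 to 352 with 1 library left out, 352 of them without KO replicate 1 and 1 each without wildtype replicate 2 or 3. It was 0 with limma, median-of-ratios scaling and a minimum of 5 FPKM. Without the filter, genes near 0 counts also enter. The cause of these differences in number was not tested. The Phc3 log2 difference, -2.78, was -1.39 on log2(FPKM + 1), where the pseudocount shrinks low levels, and -3.35 without KO replicates 2 and 3. In the remaining alternatives it was -2.87 to -2.37, and it was not tested at a minimum of 5 FPKM. Cbx8 ranged from -0.124 to 0.0114 with 1 library left out, positive without KO replicate 2 and without wildtype replicate 2, and was 0.0402 without KO replicates 2 and 3, where Ring1 was 0.0660. The other 6 partners stayed below 0 in every alternative run, and Cbx7 without KO replicate 1 was the one case past the adjusted threshold. Same-numbered libraries did not deviate together (correlations of -0.14, -0.11 and -0.058). The replicate block was fitted to the 6 libraries as labelled, where 0 genes passed with it and 570 without it. With the block, Phc3 was at -2.69 and Bmi1 at -0.36. With 2 KO samples, differences of the size seen in the partners could not be separated from the spread between libraries.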
